A study of Homo sapiens with 24 samples.

Results

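The 10 keratin genes described here are KRT8, KRT18, KRT19, KRT7 and KRT20 of simple (single-layered) epithelia, KRT23, KRT80, the injury-associated KRT17 and KRT6A, and the hair keratin KRT81. They were taken by symbol from a table of 23368 genes, whatever their values, and all 10 were found and tested. RNA was sequenced from AGS, 1 established human gastric adenocarcinoma line labelled wild type, 24 h after treatment. The 6 groups of 4 cultures, labelled biological replicates, were a control, 0.7 µM PI103, 0.035 µM PD0325901, 0.5 µM (5Z)-7-oxozeaenol (oxozeaenol from here on), PI103 with oxozeaenol (0.35 and 0.25 µM) and PI103 with PD0325901 (0.35 and 0.0175 µM). The main targets are PI3 kinase and mTOR for PI103, MEK for PD0325901 and TAK1 for oxozeaenol. Action on other kinases was not measured. Each combination held 50% of the single-agent concentration of each compound, and the labels do not say whether control cultures received vehicle. Because the cells are 1 line in bulk culture, the results speak of AGS, and fewer cells making a keratin cannot be told apart from less RNA per cell.

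Keratins form the intermediate filaments of epithelial cells. A filament is built from pairs of 1 acidic type I keratin and 1 basic type II keratin, so that neither type assembles alone. KRT8 (type II) and KRT18 (type I) are the founding pair of simple epithelia, KRT19 and KRT20 are further type I partners in glandular and gastrointestinal cells, and KRT7 is a type II keratin of ducts and glands. KRT17 (type I) and KRT6A (type II) are made by stratified epithelia, with KRT16 as another type I partner, and are induced on wounding. KRT80 is a type II keratin found near desmosomes, KRT81 is a type II hair keratin also found in carcinoma lines, and KRT23 is a type I keratin of gastrointestinal cells.

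The type II genes lie on chromosome 12 beside KRT18, and the other type I genes on chromosome 17 (GRCh38, GENCODE release 29): KRT80 at chr12:52168996-52192000, KRT7 at chr12:52232520-52252186, KRT81 at chr12:52285913-52291534, KRT6A at chr12:52487174-52493257, KRT8 at chr12:52897187-52949954, KRT18 at chr12:52948871-52952901, KRT20 at chr17:40875941-40885227, KRT23 at chr17:40922696-40937634, KRT19 at chr17:41523617-41528308 and KRT17 at chr17:41619441-41624842. KRT6A and KRT81 have close copies, and coding sequences of KRT6A and its copies are shown because they bear on which gene a read is counted for. The first 60 coding bases of KRT6A were shared without a difference by KRT6B and KRT6C, so this stretch holds no base that separates the 3 genes.
KRT6A, KRT6B and KRT6C, first coding bases: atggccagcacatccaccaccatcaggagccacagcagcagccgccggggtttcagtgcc
The last 60 coding bases differed at 2 positions in KRT6B and 1 in KRT6C, given in capitals.
KRT6A, last coding bases: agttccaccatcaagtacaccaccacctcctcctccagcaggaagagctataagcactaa
KRT6B, last coding bases: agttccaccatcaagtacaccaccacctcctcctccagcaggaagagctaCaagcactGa
KRT6C, last coding bases: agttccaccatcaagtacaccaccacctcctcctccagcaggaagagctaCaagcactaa
Over the whole coding sequence KRT6A was 97.5% identical to KRT6B and 97.9% to KRT6C, and KRT81 was 90.1% identical to KRT86. Of all 50-base windows of annotated transcripts, 39.1% of those of KRT6A and 44.6% of those of KRT81 occurred in another gene as well. For KRT8 and KRT18 the shares were 32.7% and 31.8%, mostly through processed pseudogenes such as KRT8P3 and KRT18P11, and for KRT17 the share was 17.4%. For KRT7, KRT19, KRT20, KRT23 and KRT80 it was at most 1.79%. Reads that lie wholly in such windows cannot be assigned to 1 gene by their sequence, so levels of KRT6A, KRT81, KRT8, KRT18 and KRT17 are uncertain by the part such reads make up. KRT8 and KRT18 also lie on opposite strands with exons that overlap (7.63% of KRT8 exon bases, 16.3% of KRT18), and whether the counting used strand is not given in the sources used here.

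Libraries held 38057638 to 84226380 counts in genes. CPM are counts-per-million of the scaled library size, and a gene is called changed at an adjusted p under 0.05 by edgeR's quasi-likelihood test over 13947 genes. The p-values measure the spread between cultures of 1 line, in a fit that does not pair libraries by replicate number. Many genes moved: 51.4% to 64.8% of those tested were called in a treatment against control. Oxozeaenol replicate 4 had the highest shares of reads in no feature (8.57%, beside 4.24% to 8.50% in the other libraries) and without a unique alignment (6.06%, beside 4.64% to 6.05%), and oxozeaenol replicate 2 had 18263 genes with a count, beside 15645 to 16556. Against control, 8 keratins were called with oxozeaenol with all libraries and 8 without either of these. Of the markers of an epithelial line, EPCAM, an epithelial adhesion molecule, was at 646 ± 18.7 CPM (SD, n = 4) and SPINT2, an epithelial protease inhibitor, at 850.2 ± 65.2 CPM in control, whereas CDH1, which encodes E-cadherin, was at only 13.3 ± 1.29 CPM. Of the 12 epithelial markers, 2 had a mean under 1 CPM, CLDN3 (0.00344 CPM) and CDH3 (0.0315 CPM). Of the 9 gastric markers found, 6 had a mean under 1 CPM and 2 of these, GKN1 and LIPF, were at 0 in all libraries.

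KRT8 was among the most abundant transcripts of these cells, at rank 10 of the 23368 genes of the table by mean counts, with KRT18 at rank 50, KRT19 at rank 211 and KRT80 at rank 729. Per kb of transcript, control cells held 1319 ± 118 CPM per kb of KRT8 (SD, n = 4), 1148 ± 131 of KRT18, 324 ± 27.4 of KRT19, 84.2 ± 7.25 of KRT80 and 29.1 ± 6.41 of KRT17. KRT7 followed at 2.90 ± 0.833, KRT81 at 1.36 ± 0.119, KRT6A at 0.607 ± 0.200, KRT23 at 0.453 ± 0.136 and KRT20 at 0.0476 ± 0.0267 CPM per kb. The control ranges of the neighbours KRT8 and KRT18, and of KRT6A and KRT23, overlapped, and every other pair of neighbours in this order was separate. The simple-epithelial trio KRT8, KRT18 and KRT19 thus made up nearly all keratin RNA counted, 92.4% to 97.0% of the counts of the 10 genes over the 24 libraries. The 10 genes together took 0.519 ± 0.0440% of all counts in control (SD, n = 4) and 0.456 ± 0.0603% with oxozeaenol, which overlapped.

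**Figure D1:**
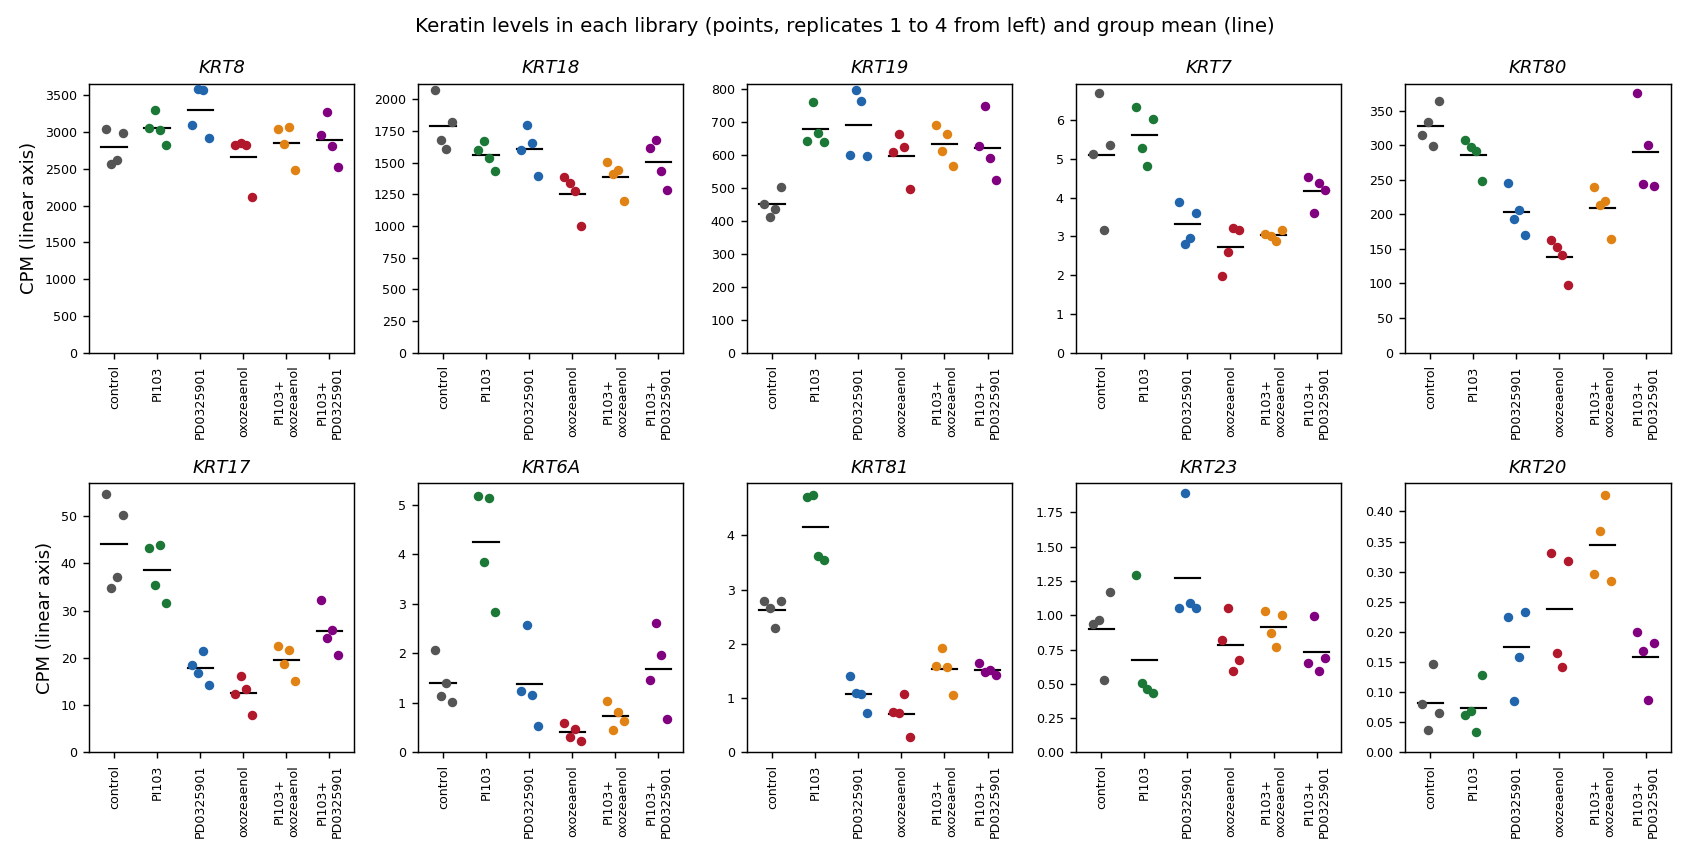
Levels of the 10 keratins in each library, in CPM on linear axes that start at 0, by group; points are the 4 replicates and lines the group means. KRT19 was higher than control in all treated groups, KRT17, KRT80 and KRT7 were lowest with oxozeaenol, and KRT6A and KRT81 were highest with PI103.

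Against control, oxozeaenol called the most keratins and PI103 alone the fewest falls. With PI103, 3 of 10 were called, all higher (51.4% of all genes were called, 26.2% higher and 25.2% lower). With PD0325901, 5 were called, 1 higher and 4 lower (all genes, 58.6%, 28.7% higher and 29.9% lower). With oxozeaenol, 8 were called, 2 higher and 6 lower (all genes, 51.9%, 25.7% higher and 26.1% lower). PI103 with oxozeaenol called 7, 2 higher and 5 lower (all genes, 55.6%, 27.7% higher and 27.9% lower). The combination of PI103 and PD0325901 called 3, 1 higher and 2 lower (all genes, 64.8%, 32.2% higher and 32.6% lower). The median log2 fold change of the 10 keratins was -0.04, -0.09, -0.71, -0.51 and -0.22 in that order, beside medians of all genes tested between -0.02 and 0.02. The share of keratins called was above that of all genes with oxozeaenol alone, and below it with PI103 and with PI103 and PD0325901. With PI103 and oxozeaenol, at 7 of 10, and with PD0325901, at 5 of 10, it was near that of all genes. With PD0325901 the count was 7 with no scaling beyond the total count and 6 with the replicate block. With PI103 and PD0325901 the count was 6 without control replicate 3, where KRT7, KRT18 and KRT20 were called as well. These 5 comparisons share the same 4 control libraries, so they are not independent of each other.

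**Figure D2:**
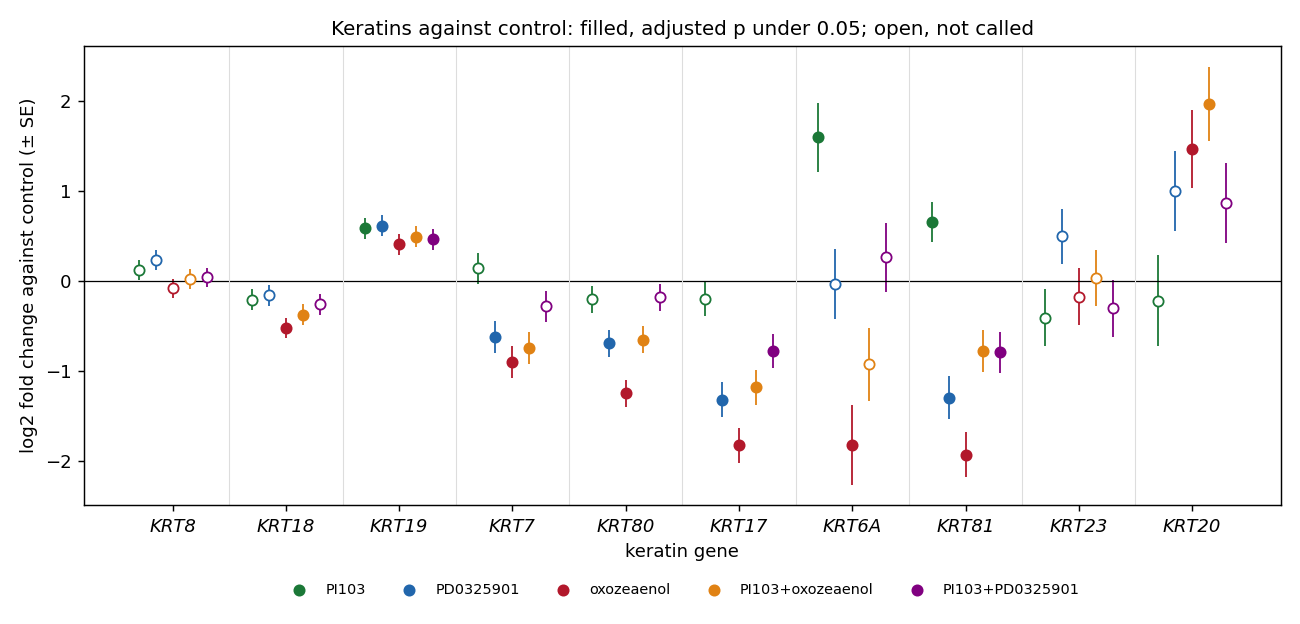
Log2 fold change against control with its SE for each keratin and treatment, over 4 libraries a group; filled points passed an adjusted p under 0.05. KRT19 lies above 0 in all 5 treatments, and KRT17, KRT80, KRT7, KRT6A and KRT81 reach their lowest values with oxozeaenol.

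KRT8, the type II member of the simple-epithelial pair, passed the test in no treatment against control, whereas its type I partner KRT18 fell in both groups that received oxozeaenol. KRT8 stood at 3049, 2560.4, 2615 and 2991 CPM in the control libraries, 3054, 3299, 3026 and 2831 CPM with PI103, 3104, 3587, 3569 and 2926 CPM with PD0325901 and 2819, 2859, 2829 and 2115 CPM with oxozeaenol. In the combinations it stood at 3044, 2833, 3064 and 2479 CPM with PI103 and oxozeaenol and at 2959.6, 3269, 2814 and 2521 CPM with PI103 and PD0325901. All treated groups overlapped control, and the 1 library well below the rest was oxozeaenol replicate 4. The log2 fold changes of KRT8 ran from -0.08 (oxozeaenol, 95% interval -0.30 to 0.15) to 0.23 (PD0325901, 0.01 to 0.46, adjusted p = 0.0690). With the replicate number as a block the latter was 0.22 (adjusted p = 0.0363), and without PD0325901 replicate 4 it was 0.29 (adjusted p = 0.0379). With no scaling beyond the total count it was 0.32 (adjusted p = 0.0136).

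KRT18 stood at 2071, 1680.2, 1605 and 1820.0 CPM in control, 1391, 1341, 1278 and 997 CPM with oxozeaenol and 1508, 1409, 1443 and 1195 CPM with PI103 and oxozeaenol. Every library of both oxozeaenol groups lay under the lowest control library. KRT18 fell by 0.52 ± 0.11 on the log2 scale with oxozeaenol (adjusted p = 4.49e-04) and by 0.37 ± 0.11 with PI103 and oxozeaenol (adjusted p = 0.00752). With PI103 (1598, 1670.0, 1537 and 1432 CPM), PD0325901 (1598, 1796, 1657 and 1393 CPM) and PI103 with PD0325901 (1616, 1676, 1435 and 1285 CPM) the libraries overlapped control. Their log2 fold changes were -0.20 ± 0.11, -0.16 ± 0.11 and -0.26 ± 0.11, with adjusted p = 0.140, 0.248 and 0.0507. With the replicate block KRT18 was also called with PI103 (-0.21, adjusted p = 0.0405) and with PI103 and PD0325901 (-0.26, adjusted p = 0.00777). The latter call also appeared with DESeq2 (adjusted p = 0.0436), with no filter on low counts, and without replicate 1 or 2 of that combination or control replicate 2 or 3 (adjusted p from 0.0285 to 0.0467).

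The ratio of KRT8 to KRT18 counts within a library, which does not depend on how libraries are scaled, was higher after every treatment. It was 1.47, 1.52, 1.63 and 1.64 in the control libraries, 1.91, 1.98, 1.97 and 1.98 with PI103, 1.94, 2.00, 2.15 and 2.10 with PD0325901 and 2.03, 2.13, 2.21 and 2.12 with oxozeaenol. With PI103 and oxozeaenol it was 2.02, 2.01, 2.12 and 2.07, and with PI103 and PD0325901 1.83, 1.95, 1.96 and 1.96. No treated library reached down to the control range. The mean rose from 1.57 ± 0.0828 (SD, n = 4) to 1.96 ± 0.0316, 2.05 ± 0.0967, 2.12 ± 0.0759, 2.06 ± 0.0528 and 1.93 ± 0.0631 in that order. Each difference had p = 0.0286 by a two-sided exact permutation test of 4 against 4 libraries, the smallest p that design allows, and 0.0286 after Benjamini-Hochberg adjustment over the 5 treatments. With libraries paired by replicate number, the exact sign-flip permutation p was 0.125, the smallest that 4 pairs allow, and all pairs in each treatment were higher than control. The ratio is one of reads counted and not of molecules, and how reads of the overlapping ends and of pseudogenes were counted is not given in the sources used here.

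**Figure D3:**
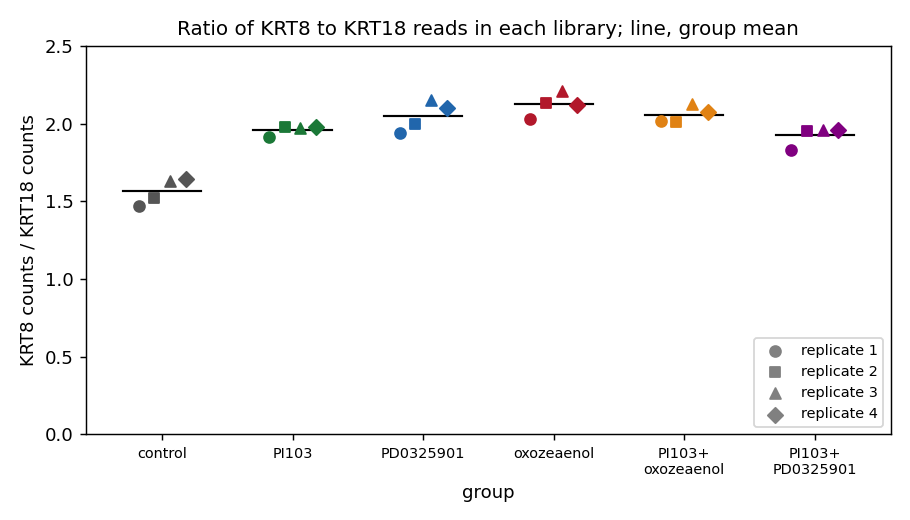
Ratio of KRT8 to KRT18 counts in each library (vertical axis from 0), by group, with the replicate number shown by the symbol and the group mean as a line. The control libraries lie between 1.47 and 1.64 and all 20 treated libraries between 1.83 and 2.21.

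KRT19, a type I keratin of glandular epithelium that lacks the tail of other keratins, rose in all 5 treatments. The control libraries stood at 452, 412, 435 and 502 CPM, those with PI103 at 643, 762, 667 and 641 CPM, with PD0325901 at 601, 797, 765 and 596 CPM and with oxozeaenol at 609, 664, 623 and 496 CPM. With PI103 and oxozeaenol they stood at 692, 613, 665 and 567 CPM and with PI103 and PD0325901 at 626, 747, 591 and 524 CPM. All treated libraries but oxozeaenol replicate 4 exceeded the highest control library. The log2 fold changes were 0.59 ± 0.12 with PI103 (adjusted p = 1.41e-04), 0.61 ± 0.12 with PD0325901 (adjusted p = 6.43e-05) and 0.41 ± 0.12 with oxozeaenol (adjusted p = 0.00469). They were 0.49 ± 0.12 and 0.47 ± 0.12 in the combinations with oxozeaenol and with PD0325901 (adjusted p = 8.06e-04 and 0.00106). These correspond to levels 1.33- to 1.53-fold those of control. With KRT18 lower or near control, the KRT19 share of type I keratin RNA among the 10 genes, per kb of transcript, went from 21.7 ± 1.79% in control (SD, n = 4) to 32.2 ± 1.27% with PI103, 32.1 ± 1.91% with PD0325901 and 34.8 ± 1.35% with oxozeaenol. It was 33.6 ± 0.796% and 31.3 ± 1.29% in the combinations, and no treated library overlapped the control range. The summed type II over type I level per kb was 0.939 ± 0.0299 in control and between 1.00 and 1.04 in the treated groups. Taken over the shortest annotated coding transcripts it was 1.08 in control and 1.17 to 1.23 in the treated groups, so which type is in excess in control depends on the transcript chosen.

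KRT80, the type II keratin found near desmosomes, fell with PD0325901, oxozeaenol and PI103 with oxozeaenol. Control libraries stood at 314, 334, 299 and 365 CPM, against 245, 194, 206 and 169.9 CPM with PD0325901, 163, 153, 141 and 97.5 CPM with oxozeaenol and 239, 213, 219 and 165 CPM with PI103 and oxozeaenol. In these 3 groups no library overlapped control. KRT80 fell by 0.69 ± 0.15 on the log2 scale with PD0325901 (adjusted p = 3.51e-04), by 1.24 ± 0.15 with oxozeaenol, a 2.37-fold lower level (adjusted p = 2.61e-07), and by 0.65 ± 0.15 with PI103 and oxozeaenol (adjusted p = 7.31e-04). With PI103 alone it stood at 307, 297, 292 and 249 CPM and with PI103 and PD0325901 at 375, 244, 300.1 and 240.4 CPM, both overlapping control. The log2 fold changes there were -0.20 (95% interval -0.50 to 0.11) and -0.18 (-0.49 to 0.13), with adjusted p = 0.282 and 0.304.

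KRT7, a low type II keratin of ducts and glands, fell in the same 3 groups. It stood at 5.13, 6.71, 3.16 and 5.37 CPM in control, from 259 to 409 counts, and control replicate 3 was the lowest. It stood at 3.88, 2.82, 2.97 and 3.60 CPM with PD0325901, 1.98, 2.60, 3.21 and 3.16 CPM with oxozeaenol and 3.05, 3.02, 2.88 and 3.16 CPM with PI103 and oxozeaenol. With PD0325901 and with oxozeaenol control replicate 3 overlapped the treated libraries, and with PI103 and oxozeaenol all 4 libraries were lower than control, the nearest pair of libraries by a small margin. The falls on the log2 scale were 0.62 ± 0.18 (adjusted p = 0.00413), 0.90 ± 0.18 (adjusted p = 1.72e-04) and 0.74 ± 0.18 (adjusted p = 9.02e-04) in that order. With PI103 (6.33, 5.27, 4.82 and 6.03 CPM) the log2 fold change was 0.15 ± 0.17 (adjusted p = 0.501), and with PI103 and PD0325901 (4.53, 3.61, 4.38 and 4.20 CPM) it was -0.28 ± 0.17 (adjusted p = 0.165). Without control replicate 3 the latter was -0.44 and called (adjusted p = 0.0145).

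KRT17, the type I keratin induced on wounding, fell in 4 of the 5 treatments and had the largest falls among the 5 keratins with a control mean over 10 CPM. The control libraries stood at 54.6, 34.7, 37.1 and 50.2 CPM. They stood at 18.5, 16.8, 21.5 and 14.2 CPM with PD0325901, 12.4, 16.1, 13.5 and 7.94 CPM with oxozeaenol, 22.5, 18.7, 21.7 and 15.0 CPM with PI103 and oxozeaenol, and 32.1, 24.1, 26.0 and 20.7 CPM with PI103 and PD0325901. None of these 16 libraries overlapped control. KRT17 fell by 1.31 ± 0.19 on the log2 scale with PD0325901 (adjusted p = 2.91e-06) and by 1.82 ± 0.20 with oxozeaenol, a 3.54-fold lower level (adjusted p = 5.20e-08). It fell by 1.18 ± 0.19 with PI103 and oxozeaenol (adjusted p = 1.39e-05) and by 0.78 ± 0.19 with PI103 and PD0325901 (adjusted p = 9.15e-04). With PI103 alone it stood at 43.2, 35.3, 44.0 and 31.5 CPM, overlapping control, at a log2 fold change of -0.20 ± 0.19 (adjusted p = 0.393).

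KRT6A, a type II partner of KRT16 and KRT17 in stratified epithelium, rose with PI103 and fell with oxozeaenol. It stood at 2.06, 1.14, 1.39 and 1.02 CPM in control, 5.18, 3.83, 5.13 and 2.83 CPM with PI103 and 0.592, 0.315, 0.482 and 0.229 CPM with oxozeaenol, the last from 13 to 34 counts a library. All PI103 libraries were above control and all oxozeaenol libraries under it. The level with PI103 was 3.03-fold that of control (log2 1.60 ± 0.38, adjusted p = 0.00118), and that with oxozeaenol was 3.51-fold lower (log2 -1.81 ± 0.44, adjusted p = 0.00152). With PD0325901 (1.24, 2.58, 1.16 and 0.527 CPM) and with PI103 and PD0325901 (1.45, 2.62, 1.97 and 0.667 CPM) the libraries were scattered around control, at log2 fold changes of -0.03 ± 0.39 and 0.27 ± 0.39 (adjusted p = 0.949 and 0.561). With PI103 and oxozeaenol (1.03, 0.451, 0.818 and 0.625 CPM) the log2 fold change was -0.92 ± 0.41 (adjusted p = 0.0583). It was -0.93 and called with the replicate block (adjusted p = 0.0148). It was also called in a fit of only these 8 libraries, and without control replicate 4 (-1.05, adjusted p = 0.0490) or replicate 1 of the combination (-1.15, adjusted p = 0.0406).

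KRT81, the hair keratin, was likewise highest with PI103 and lowest with oxozeaenol. It stood at 2.79, 2.66, 2.30 and 2.78 CPM in control and 4.70, 4.74, 3.62 and 3.55 CPM with PI103, all higher than control. It stood at 1.41, 1.10, 1.08 and 0.729 CPM with PD0325901, 0.748, 0.726, 1.08 and 0.282 CPM with oxozeaenol, 1.60, 1.92, 1.57 and 1.06 CPM with PI103 and oxozeaenol and 1.64, 1.48, 1.52 and 1.43 CPM with PI103 and PD0325901, all lower than control. Against control KRT81 rose by 0.66 ± 0.22 on the log2 scale with PI103 (adjusted p = 0.0160). It fell by 1.29 ± 0.24 with PD0325901 (adjusted p = 4.67e-05), 1.93 ± 0.25 with oxozeaenol (adjusted p = 5.92e-07), 0.77 ± 0.23 with PI103 and oxozeaenol (adjusted p = 0.00647) and 0.79 ± 0.23 with PI103 and PD0325901 (adjusted p = 0.00429). The rise with PI103 was no longer called without PI103 replicate 2 (0.59, adjusted p = 0.0502) or control replicate 3 (0.59, adjusted p = 0.0506). The copies were counted apart: KRT86 moved from 1.45 ± 0.303 CPM to 0.651 ± 0.226 CPM with oxozeaenol (SD, n = 4), a log2 fold change of -1.14 (adjusted p = 1.66e-04), and KRT6B from 0.139 ± 0.125 CPM to 0.659 ± 0.284 CPM with PI103, a log2 fold change of 2.27 (adjusted p = 0.00102). KRT86 with PI103 was at 0.43 (adjusted p = 0.0871) and KRT6B with oxozeaenol at -0.23 (adjusted p = 0.791), neither called, and KRT6C had 9 counts in all 24 libraries together. KRT86 and KRT6B were named here after their values were seen, and how far shared reads move with KRT81 and KRT6A was not tested.

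KRT20, a type I keratin of gastric surface and intestinal epithelium, was barely detected and was higher in both groups that received oxozeaenol. Its counts were 5, 2, 12 and 5 in the control libraries and 4, 4, 2 and 8 with PI103. They were 19, 12, 5 and 18 with oxozeaenol and 23, 22, 24 and 15 with PI103 and oxozeaenol, or 0.331, 0.164, 0.142 and 0.318 and 0.296, 0.367, 0.427 and 0.284 CPM beside 0.0810, 0.0373, 0.147 and 0.0656 CPM in control. With oxozeaenol alone replicate 3 overlapped control replicate 3, whereas every library of the combination was above control. The level was 2.77-fold that of control with oxozeaenol (log2 1.47 ± 0.43, adjusted p = 0.00614) and 3.91-fold with the combination (log2 1.97 ± 0.41, adjusted p = 2.46e-04). With PD0325901 the log2 fold change was 1.01 ± 0.44 (adjusted p = 0.0542) and with PI103 and PD0325901 it was 0.87 ± 0.45 (adjusted p = 0.0913). Without control replicate 3, the control library highest in KRT20, these were 1.49 and 1.33 and both called (adjusted p = 0.0144 and 0.0251). The same calls appeared without PD0325901 replicate 2 (1.25, adjusted p = 0.0230) and without replicate 3 of PI103 with PD0325901 (1.08, adjusted p = 0.0449). The call with PD0325901 also appeared with no scaling beyond the total count (adjusted p = 0.0415). At 2 to 24 counts a library, these folds rest on few reads.

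KRT23, a type I keratin of gastrointestinal cells, passed the test in no treatment against control. It stood at 0.939, 0.969, 0.525 and 1.17 CPM in control, 1.29, 0.503, 0.463 and 0.436 CPM with PI103 and 1.05, 1.89, 1.09 and 1.05 CPM with PD0325901. In both treated groups 1 library stood far above the other 3, replicate 1 with PI103 and replicate 2 with PD0325901. The remaining groups lay within 0.596 to 1.05 CPM (oxozeaenol), 0.765 to 1.03 CPM (PI103 and oxozeaenol) and 0.593 to 0.991 CPM (PI103 and PD0325901), all overlapping control. The log2 fold changes ran from -0.40 ± 0.32 with PI103 (adjusted p = 0.295) to 0.50 ± 0.31 with PD0325901 (adjusted p = 0.164). Without PI103 replicate 1 the former was -0.94 and called (adjusted p = 0.0112).

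Set against each other, PI103 and oxozeaenol differed by the largest folds in KRT6A and KRT81. PI103 was higher than oxozeaenol in 6 keratins and lower in 1, KRT20 (43.1% of all genes were called, 20.6% higher and 22.5% lower). KRT6A was 10.6-fold higher with PI103 than with oxozeaenol (log2 3.41 ± 0.44, adjusted p = 1.24e-06), KRT81 5.99-fold (log2 2.58 ± 0.25, adjusted p = 1.04e-08), KRT17 3.09-fold, KRT80 2.06-fold and KRT7 2.06-fold. In these 5 genes, and in KRT18 and KRT20, no PI103 library overlapped an oxozeaenol library. How many of all genes separate in this way was not counted, here or in the comparisons below. KRT18 was higher by 0.32 ± 0.11 on the log2 scale (adjusted p = 0.0259), and not called without oxozeaenol replicate 4 (0.22, adjusted p = 0.114), PI103 replicate 1 (0.0609) or PI103 replicate 2 (0.0808). KRT20 was 3.21-fold lower (adjusted p = 0.00407). KRT23 was lower with PI103 in this comparison, by 0.77 on the log2 scale (adjusted p = 0.0457), in the fit without PI103 replicate 1, and at -0.23 (adjusted p = 0.587) with all libraries. PI103 was higher than PD0325901 in 5 keratins and lower in 2 (all genes, 44.5%, 21.7% higher and 22.9% lower): KRT81 was 3.87-fold higher (adjusted p = 2.79e-07), KRT6A 3.09-fold, KRT17 2.17-fold, KRT7 1.69-fold and KRT80 1.41-fold. The lower calls of KRT20 (-1.22 ± 0.47, adjusted p = 0.0352) and KRT23 (-0.90 ± 0.31, adjusted p = 0.0208) were each lost in fits that left out 1 library. For KRT20 these were PI103 replicate 1, 2 or 3 or PD0325901 replicate 1 or 4 (adjusted p up to 0.110), and for KRT23 PI103 replicate 2, 3 or 4 or PD0325901 replicate 2 (up to 0.0907). The call of KRT20 was also lost with DESeq2 (adjusted p = 0.0513) and with no filter on low counts (0.0551), and that of KRT23 in a fit of these 8 libraries (0.0531).

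PD0325901 and oxozeaenol each lowered KRT17, KRT80, KRT7 and KRT81. Set against oxozeaenol, PD0325901 was higher in 5 keratins and lower in none (all genes, 28.5%, 15.1% higher and 13.4% lower). KRT6A was 3.43-fold higher (log2 1.78 ± 0.45, adjusted p = 0.00483) and KRT80 1.47-fold higher (log2 0.55 ± 0.15, adjusted p = 0.00800). Both calls held in every fit that left out 1 library of these groups. KRT8 (0.31, adjusted p = 0.0339), KRT18 (0.36, adjusted p = 0.0183) and KRT17 (0.51, adjusted p = 0.0498) were called with all libraries but none of them without oxozeaenol replicate 4, where their log2 differences were 0.22, 0.27 and 0.34. Without PD0325901 replicate 2 all 3 were lost as well (adjusted p = 0.0925, 0.0640 and 0.0809), and without PD0325901 replicate 3 KRT8 and KRT17 were (adjusted p = 0.0948 and 0.154). In a fit of these 8 libraries alone the adjusted p of KRT8, KRT18 and KRT17 were 0.133, 0.0778 and 0.0712. KRT17 was also lost without replicate 1 of either group or oxozeaenol replicate 3 (adjusted p from 0.0659 to 0.0814). KRT81, at 0.63 (adjusted p = 0.0690), was called with the replicate block (0.65, adjusted p = 0.0309), with DESeq2 and without oxozeaenol replicate 3 or PD0325901 replicate 4 (adjusted p = 0.0230 and 0.0282), and KRT23 with the block (0.70, adjusted p = 0.0499).

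The combination of PI103 with oxozeaenol held less KRT6A, KRT81, KRT17 and KRT7 than PI103 alone, and more KRT81 and KRT80 than oxozeaenol alone. The doses differ by design, since each compound was at 50% of its single-agent concentration. Against PI103, 6 keratins were called, 1 higher and 5 lower (18.3% of all genes, 9.39% higher and 8.92% lower). The libraries of each called keratin did not overlap, and how many of all genes separate in this way was not counted. KRT6A was 5.73-fold lower (log2 -2.52 ± 0.41, adjusted p = 7.86e-05), KRT81 2.69-fold lower (log2 -1.43 ± 0.23, adjusted p = 6.66e-05), KRT17 1.97-fold and KRT7 1.85-fold lower. KRT20 was 4.54-fold higher (log2 2.18 ± 0.43, adjusted p = 6.62e-04). KRT80 was lower by 0.45 ± 0.15 on the log2 scale (adjusted p = 0.0371), a call lost without PI103 replicate 1, 2 or 3 or replicate 2, 3 or 4 of the combination (adjusted p from 0.0605 to 0.146). KRT23, at 0.44 with all libraries, was 0.97 without PI103 replicate 1 (adjusted p = 0.0284). Against oxozeaenol, 3 keratins were called, all higher (14.9% of all genes, 7.59% higher and 7.28% lower): KRT81 was 2.22-fold higher (log2 1.15 ± 0.26, adjusted p = 0.00327), KRT17 1.56-fold (log2 0.64 ± 0.19, adjusted p = 0.0254) and KRT80 1.51-fold (log2 0.60 ± 0.15, adjusted p = 0.00900). The KRT17 call was lost in a fit of these 8 libraries (adjusted p = 0.0535), with no filter on low counts (0.0571) and without replicate 1 or 3 of the combination (adjusted p = 0.104 and 0.0784) or oxozeaenol replicate 4 (adjusted p = 0.0812). The KRT80 call was lost without replicate 1 of the combination (adjusted p = 0.0512).

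The combination of PI103 with PD0325901 also held less KRT81, KRT6A and KRT17 than PI103 alone. These 3 were the keratins called, all lower (38.7% of all genes, 18.8% higher and 19.9% lower): KRT81 was 2.73-fold lower (log2 -1.45 ± 0.23, adjusted p = 2.41e-05), KRT6A 2.52-fold lower (log2 -1.33 ± 0.38, adjusted p = 0.00720) and KRT17 1.49-fold lower (log2 -0.58 ± 0.19, adjusted p = 0.0174). The libraries did not overlap for KRT81 and KRT6A. The KRT17 call was lost without PI103 replicate 1 or 3 or replicate 2 or 4 of the combination (adjusted p from 0.0517 to 0.0609). KRT7, at -0.42 ± 0.17 (adjusted p = 0.0562) with no overlap between libraries, was called without PI103 replicate 3 (adjusted p = 0.0453), with DESeq2 and in a fit of these 8 libraries. KRT20, at 1.08 ± 0.47 (adjusted p = 0.0702), was called without PI103 replicate 4 (adjusted p = 0.0301) or replicate 3 of the combination (adjusted p = 0.0377). Against PD0325901 alone only KRT80 was called, 1.42-fold higher (log2 0.51 ± 0.15, adjusted p = 0.0198, beside 18.1% of all genes called, 8.06% higher and 10.0% lower). That call was lost without PD0325901 replicate 2, 3 or 4 (adjusted p = 0.0502, 0.0521 and 0.0697) or replicate 1 of the combination (adjusted p = 0.110), and in a fit of these 8 libraries (0.0608). With the replicate block KRT17 (0.53, adjusted p = 0.0140) and KRT23 (-0.81, adjusted p = 0.0339) were called as well, and DESeq2 called both too (adjusted p = 0.0287 and 0.0480). KRT17 was also called without replicate 4 of the combination (adjusted p = 0.0391) and KRT23 without its replicate 2 (adjusted p = 0.0405).

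Of 45 further keratin genes in the table, 11 had enough counts to test and 8 were at 0 in all libraries. With PI103, PD0325901, oxozeaenol, PI103 with oxozeaenol and PI103 with PD0325901, 5, 3, 3, 4 and 3 of the 11 rose and 1, 4, 3, 2 and 3 fell. Of all genes tested, in the same order, 26.2%, 28.7%, 25.7%, 27.7% and 32.2% were called higher and 25.2%, 29.9%, 26.1%, 27.9% and 32.6% lower. KRT14, the type I keratin of basal layers of stratified epithelium, rose in all 5, from 0.692 ± 0.145 CPM in control (SD, n = 4) to between 2.65 ± 0.368 CPM with PI103 and PD0325901 and 3.89 ± 0.567 CPM with PD0325901. Its log2 fold changes were 2.36, 2.47, 2.34, 2.44 and 1.92 in the order just given, with adjusted p no higher than 4.17e-09. KRT13, a type I keratin of mucosal stratified epithelium, rose from 7.99 ± 0.992 CPM to 17.0 ± 1.38 CPM with PI103, 19.4 ± 1.90 CPM with oxozeaenol and 20.7 ± 2.51 CPM with both (adjusted p = 1.62e-07, 1.42e-08 and 3.01e-09). With PD0325901 KRT13 was at a log2 fold change of -0.11 (adjusted p = 0.479), and with PI103 and PD0325901 it fell by 0.31 (adjusted p = 0.0418). That fall was -0.18 with no scaling beyond the total count (adjusted p = 0.229), and was not called without control replicate 2, 3 or 4 or replicate 1 or 4 of the combination (adjusted p from 0.0707 to 0.140). KRT71, a type II keratin of the hair root sheath, was at log2 fold changes of 1.19, 1.45, 0.24, 0.53 and 1.36, called in all but oxozeaenol alone, where it was called without oxozeaenol replicate 4 (0.41, adjusted p = 0.0274).

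KRT16, the type I partner of KRT6A, was named after its values were seen. It had 77 to 109 counts in each control library (1.41 ± 0.297 CPM) and 5 to 11 in each library with PI103 (0.148 ± 0.0461 CPM), a log2 fold change of -3.23 (adjusted p = 5.71e-07). Each of the other 4 treated groups had 1 library at 0 and at most 7 counts in any other, with totals of 11, 5, 8 and 10 counts over 4 libraries for PD0325901, oxozeaenol, PI103 with oxozeaenol and PI103 with PD0325901, beside 379 in control (adjusted p between 2.58e-09 and 6.30e-09). KRT6A and KRT16 therefore moved in opposite directions with PI103, KRT6A up and KRT16 down, and both fell with oxozeaenol. KRT75, a type II hair follicle keratin also named after the fact, rose with PI103 from 0.184 ± 0.137 CPM to 1.37 ± 0.349 CPM (log2 2.89, adjusted p = 1.08e-06). It fell with oxozeaenol to 0.0348 ± 0.0150 CPM (log2 -2.29, adjusted p = 0.00268), as KRT6A and KRT81 did. Its counts were 4 to 23 a library in control and 1 to 3 with oxozeaenol, so this fall rests on few reads. KRT75 also fell with PD0325901 (log2 -1.38, adjusted p = 0.0263), as KRT81 did, whereas KRT6A was not called there.

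**Figure D4:**
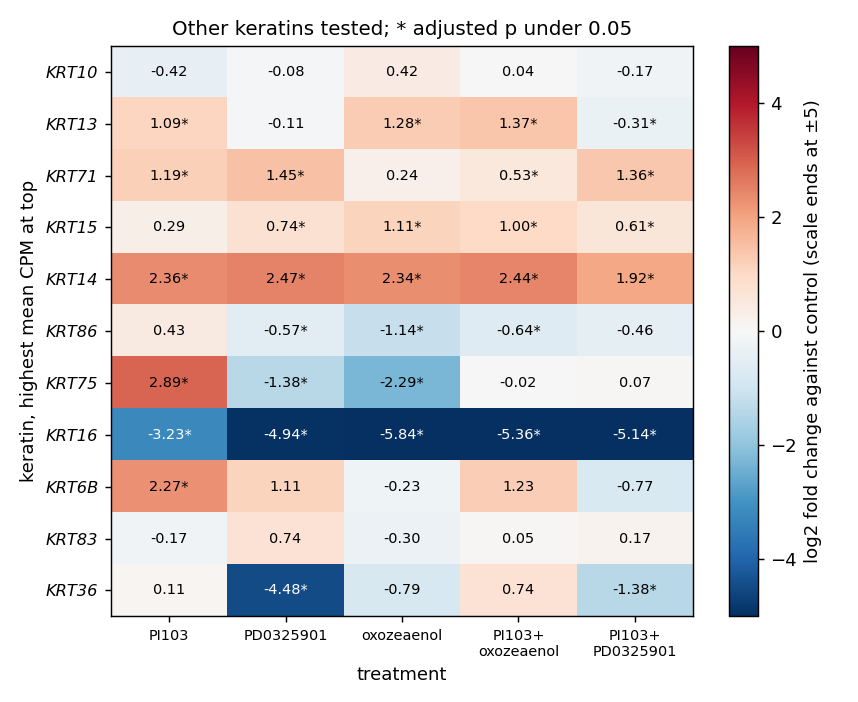
Log2 fold change against control of the 11 other keratins with enough counts to test, by treatment; colour and number give the same value and an asterisk marks an adjusted p under 0.05. KRT14 rose and KRT16 fell in all 5 treatments; groups with 11 counts or fewer over 4 libraries, such as KRT36 with PD0325901 and most of KRT16, have fitted values that depend on few reads.

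Genes of other filaments and of the structures that hold keratins were read from lists, beside 25.2% to 32.6% of all genes called in each direction against control. In the order PI103, PD0325901, oxozeaenol, PI103 with oxozeaenol and PI103 with PD0325901, of 8 tested intermediate filament genes outside the keratins 6, 2, 3, 5 and 3 rose and 1, 1, 3, 2 and 1 fell. VIM, which encodes the mesenchymal filament protein vimentin, rose in all 5, from 6.37 ± 0.479 CPM in control to 16.3 ± 0.620 CPM with PI103 (log2 1.36, adjusted p = 1.37e-11); the call with oxozeaenol (log2 0.30, adjusted p = 0.0108) was lost without oxozeaenol replicate 3 (adjusted p = 0.0558). DES, which encodes the muscle filament protein desmin, rose in all 5 by 0.98 to 2.79 on the log2 scale, and NES, which encodes nestin, rose with PI103 by 1.23. Of 11 desmosome genes, whose products anchor keratins to the membrane between cells, 4, 5, 0, 3 and 6 rose and 0, 2, 2, 1 and 2 fell. DSP, which encodes desmoplakin, the link between desmosome and keratin, rose with PI103 by 0.67 (adjusted p = 4.89e-05) and was at 0.05 with oxozeaenol (adjusted p = 0.760). DSC2, a desmosomal cadherin, rose with PD0325901 by 0.89, and PERP, a desmosome membrane protein, rose with PI103 by 0.82. Of 13 plakin and hemidesmosome genes, which tie keratins to the basal side, 8, 3, 3, 4 and 6 rose and 0, 3, 3, 2 and 2 fell. ITGB4, the integrin of hemidesmosomes, rose in all 5 by 0.52 to 0.86, LAMA3, a laminin chain it binds, rose in all 5 by 0.39 to 1.18, and COL17A1, a hemidesmosome collagen, rose with PI103 by 0.54 and fell with PD0325901 by 0.90.

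Of 13 tested transcription factors of epithelial cells, in the same order, 4, 5, 3, 3 and 5 rose and 4, 5, 7, 7 and 6 fell. Of all genes tested, 25.2% to 32.6% were called in each direction against control. KLF4 and KLF5, which regulate epithelial differentiation and growth, fell in all 5: KLF4 went from 185 ± 16.1 CPM to 29.7 ± 7.12 CPM with oxozeaenol (log2 -2.64, adjusted p = 1.34e-12) and 73.0 ± 5.74 CPM with PI103 (log2 -1.34), and KLF5 fell by 0.89 to 1.39. GRHL3, a factor of barrier formation, rose in all 5 by 0.69 to 1.46. The promoter windows used here (RefSeq, GRCh38.p14, 250 bases before to 50 after 1 start of a gene) matched 2 of the 10 keratins, KRT8 and KRT20. The KRT8 window held CCGGAA, an ETS-type motif, starting 57 bases before the start, and the KRT20 window held CACCTG, an E-box, at bases 32 to 37 after it, each once and on the strand opposite the gene's own. TGANTCA (AP-1), TATAAA and GGGCGG were searched on both strands as well and had no match in either window. Of 35116 promoter windows, 17.2% held CCGGAA, 20.6% CACCTG, 7.71% TGANTCA, 11.5% TATAAA and 45.0% GGGCGG.

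Lists of cell type markers were read beside the keratins, and beside 25.2% to 32.6% of all genes called in each direction against control. Of 10 tested epithelial markers, in the same order of treatments, 5, 6, 6, 6 and 6 rose and 2, 1, 1, 1 and 1 fell, and their summed level was 3048 to 3356 CPM in control and 3486 to 4645 CPM over the treated libraries. ESRP1, an epithelial splicing factor, fell in all 5, by 0.52 to 0.93 on the log2 scale. Of 5 tested intestinal markers 1, 5, 5, 3 and 4 rose and 1, 0, 0, 0 and 0 fell, and the summed level of all 8 was 302 to 329 CPM in control, 334 to 362 CPM with PI103, 515 to 695 CPM with PD0325901 and 407 to 494 CPM with oxozeaenol. FABP1, SI and MUC2, which define absorptive and goblet cells, had means under 0.1 CPM. In the same order of treatments CDH17, an intestinal cadherin, was at log2 fold changes of -0.06, 1.40, 0.69, 0.95 and 1.33 and ALPI, an intestinal phosphatase, at 0.42, 3.33, 2.40, 1.83 and 2.67, each called in all but PI103 alone. Both were highest with PD0325901, whereas KRT20 was highest with PI103 and oxozeaenol. Of 4 tested gastric markers 3, 2, 2, 2 and 2 rose and 1, 0, 0, 1 and 1 fell, and the summed level of the 9 in the table was 36.0 to 47.4 CPM in control and 46.2 to 189 CPM in treated libraries, most of it MUC1, a surface mucin. The part of these genes in the KRT20 values was not tested. Squamous markers bear on KRT17, KRT6A and KRT14: 9 of 10 had a mean under 1 CPM, LOR was at 0 in all libraries, and the sum of the list, nearly all of it TGM1, was 10.6 to 13.1 CPM in control and 10.9 to 17.3 CPM in treated libraries. Of 4 tested, 0, 1, 2, 1 and 2 rose and 0, 0, 1, 1 and 0 fell in the same order. TGM1 was called higher in all but PI103 alone, by 0.27 to 0.43 on the log2 scale. With oxozeaenol FLG rose (1.62, adjusted p = 0.00219) and SPRR1A fell (-2.09, adjusted p = 0.0163), both at means under 1 CPM.

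Most markers of non-epithelial cells had means under 1 CPM. PDGFRA (51.5 CPM) and COL1A1 (17.9 CPM) were the highest of them. Of 8 fibroblast markers 6 had means under 1 CPM, among them COL1A2 and DCN under 0.01 CPM, and the sum, 61.1 to 83.4 CPM in control, 99.3 to 112 CPM with PI103 and 37.6 to 46.6 CPM with oxozeaenol, was mostly PDGFRA and COL1A1. All 4 endothelial markers were under 1 CPM and summed to at most 0.452 CPM in any library. The 6 leukocyte markers summed to 1.42 to 8.45 CPM, almost all CD68 and CSF1R, with PTPRC and CD3E at a mean under 0.1 CPM. Of 5 tested fibroblast markers, 1, 3, 1, 1 and 2 rose and 1, 1, 3, 3 and 1 fell in the treatment order above. Of all genes, 25.2% to 32.6% were called in each direction. COL1A1 (1.15 with PI103 and -0.77 with oxozeaenol on the log2 scale) was called in the same directions as KRT6A and KRT81. Its partner chain COL1A2 was near 0 CPM. LUM, at a mean of 0.0842 CPM, was called the opposite way in these 2 treatments (-4.51 and 1.59). PDGFRA was not called with PI103 (0.24, adjusted p = 0.139). The part of these genes in the keratin values was not tested.

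Across the 24 libraries, which share 6 groups and so are not independent points, the log2 CPM of KRT17 and KRT80 had a Pearson correlation of 0.92, KRT17 and KRT81 of 0.90, and KRT80 and KRT81 of 0.83. KRT8 and KRT18 were at 0.71, KRT8 and KRT19 at 0.70, and KRT18 and KRT19 at 0.05. KRT20 was at -0.72 with KRT7 and -0.70 with KRT17. By the same measure, over 10035 candidate genes with a mean of at least 5 CPM, the 2 genes most like KRT8 were CHMP4B (0.91) and RAB1B (0.88), those most like KRT18 were VASP (0.92) and ARF1 (0.91), and those most like KRT19 were TRAPPC1 (0.91) and MARCH9 (0.90). KRT17 was most like C19orf21 (0.94) and SMAD7 (0.94), and KRT80 most like RASGRP1 (0.94) and BBC3 (0.93). These are descriptions of 24 libraries that share treatments and batches.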

How the data were processed

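RNA of AGS cells was measured in 24 libraries, made with a stranded mRNA kit from 0.8 µg of total RNA per the labels' protocols. The authors deposited whole-number read counts per gene symbol, on build GRCh38 per the submitters' processing notes. The aligner, counter, annotation and strand setting are not given in the sources used here. Closing tallies of reads in no gene stayed out of library sizes, among them 4.64% to 6.06% per library that did not align uniquely, 1.57% to 2.01% that were ambiguous and 4.24% to 8.57% in no feature. Groups came from the sample titles, since the treatment field numbers the compound names upward in later replicates.

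From these counts, genes were kept by filterByExpr (13947 of 23368, with 99.989% of the counts), TMM-scaled and fitted robustly in edgeR 4.0.16 (R 4.3.3) with 1 coefficient per group. Each of 12 contrasts had a two-sided quasi-likelihood F test with Benjamini-Hochberg adjustment over all genes tested, and every adjusted p of a gene is from it unless DESeq2 1.42.0 is named. SE is the absolute log2 fold change over the square root of F, and 95% intervals use edgeR's degrees of freedom. The code was tested on simulated data. Log2 CPM used a prior count of 2. Other settings were DESeq2, other scalings, no filter, the replicate block, only the groups compared and each library left out.

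The labels call the replicate number a batch. Same-numbered libraries of different groups deviated together (mean r = 0.12, positive in 47 of 60 pairs, against -0.04 over 180 other pairs), so the numbers pair the samples.

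Shared windows of 50 bases and lengths come from GENCODE 29. The 10 members and all lists were chosen with earlier results of these data known. All 10 members are named, in each list the 3 genes with the largest called change and a mean of at least 1 CPM, and for each member of at least 5 CPM its 2 best-correlated genes. Further names mark markers and copies. Some items are not reported here.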

Additional observations from a re-analysis of the deposited data

Results flagged for a closer look

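The highest and lowest library of each group were checked for each of the 10 keratins and for the ratio of KRT8 to KRT18, 66 groups of 4 in all. A library was listed where its gap to the nearest other, over the range of the group, passed Dixon's 95% critical value for 4 samples. Chance lists about 1 in 20 groups, and 5 were listed here. KRT8 was at 2115 CPM in oxozeaenol replicate 4, beside 2819 to 2859 CPM in the other 3. That library was also the lowest of its group for KRT18, KRT19, KRT80, KRT17, KRT6A and KRT81. In every other treated group too, replicate 4 was the lowest library for KRT8, KRT18, KRT19, KRT80, KRT17 and KRT81. In control it was the lowest for none of these, and the highest for KRT19 and KRT80. Oxozeaenol replicate 4 had the highest shares of reads in no feature (8.57%) and without a unique alignment (6.06%) of the 24 libraries. Replicate 4 of PI103 with oxozeaenol was close to it (8.50% and 6.05%). The part of these shares and of the batch in the values was not tested. KRT23 was at 1.291 CPM in PI103 replicate 1, beside 0.436 to 0.503 CPM, and at 1.889 CPM in PD0325901 replicate 2, beside 1.05 to 1.09 CPM. The ratio of KRT8 to KRT18 was 1.911 in PI103 replicate 1, beside 1.97 to 1.98, and 1.832 in PI103 with PD0325901 replicate 1, beside 1.95 to 1.96, both above all control libraries.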

How the results depend on the processing

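Of 1673 values of the 10 keratins under other settings, 0 called values reversed, while 53 calls were lost and 43 gained. For 37 further genes, whose settings were chosen after seeing the data, 0 of 2582 reversed, while 56 calls were lost and 35 gained. With no scaling beyond the total count the median of all genes for PI103 with PD0325901 against control moved from 0.005 to 0.134, and the share of higher calls moved from 49.6% to 59.9%. That share moved from 52.9% to 63.9% for PD0325901 against oxozeaenol, from 48.5% to 58.9% for PI103 with PD0325901 against PI103 and from 44.6% to 56.4% against PD0325901. KRT20, at few counts, had no value in 7 fits of only the groups compared.

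The keratins called for PD0325901 against oxozeaenol went from 5 to 2 with only the libraries compared. For PI103 with PD0325901 against PD0325901 they went from 1 to 2 with total-count scaling, 3 with the replicate block and 3 with DESeq2. On leaving out 1 library they ranged from 3 to 6 for PI103 with PD0325901 against control (6 without control replicate 3). They ranged from 2 to 6 for PD0325901 against oxozeaenol (2 without PD0325901 replicate 2 or oxozeaenol replicate 4), from 1 to 3 for PI103 with oxozeaenol against oxozeaenol (1 without replicate 1 of the combination) and from 0 to 2 for PI103 with PD0325901 against PD0325901.

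The log2 ratio of KRT8 to KRT18 against control, paired by the replicate block, was 0.323 (PI103), 0.387 (PD0325901), 0.439 (oxozeaenol), 0.393 (PI103 and oxozeaenol) and 0.298 (PI103 and PD0325901). The exact permutation p of each was then 0.125, the smallest possible. On leaving out 1 library it ranged, in that order, over 0.293 to 0.346, 0.357 to 0.412, 0.409 to 0.462, 0.364 to 0.416 and 0.269 to 0.322, with an exact permutation p of 0.0571 as the smallest possible. KRT20, KRT23, KRT6A and KRT81 rest on the fewest reads.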
